A study of Rattus norvegicus with 3 samples.

Results

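A set of 9 genes used to tell arteries, capillaries and veins apart was followed through the stromal cells of the rat thymus: Efnb2, Gja5, Hey1, Sox17, Nr2f2, Ephb4, Ackr1, Car4 and Ankrd55. They were chosen by name, with earlier results of these data known, and all 9 were found among the 34034 features of the stromal library. Textbook identity assigns 4 of them to arteries (Efnb2, Gja5, Hey1, Sox17), 3 to veins (Nr2f2, Ephb4, Ackr1) and Car4 to capillaries. Ankrd55 has no such assignment and was included because an earlier look at these data had found it high in the cells labelled vEC, so its level there is a description only.

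The study profiled the thymus of the inbred Lewis rat at 8 weeks of age, with no treatment, transgene or mutant named in the labels. Its stromal library was made from tissue digested with Liberase TH and DNase I, enriched for cells that lack CD45 on a magnetic separator and a cell sorter, and sequenced with 10x droplets. A thymocyte library, released with collagenase D and DNase I from thymi of the same strain and age, is used here as the level of each gene in cells that should lack it. The number of animals behind each library is not given in the sources used here. Each group had 1 sample, so no test was run, no p-value is given, and every difference describes this library alone.

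The 13226 annotated stromal cells carried 29 labels, of which 24 had at least 20 cells and were compared. Of these cells, 1070 (8.09%) carried the endothelial labels aEC (90 cells), capEC (636 cells) and vEC (344 cells), names that the files do not spell out and that are set here beside arterial, capillary and venous identity. Together they held 8867399 UMIs, the barcode tags by which captured RNA molecules are counted. The median per cell was 7342.5 in aEC, 5805.5 in capEC and 9585.5 in vEC. Levels are given in CPM, the UMIs of a gene per 1000000 UMIs of the label. A level summed over a label does not separate fewer expressing cells from less RNA per cell, so shares of cells with a UMI stand beside it. Brackets hold 95% intervals that cover counting error only, exact Poisson for levels, exact Clopper-Pearson for shares and log-normal for ratios. The 2 libraries shared 38 cell barcodes, 2 of them on cells with an endothelial label.

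Endothelial cells line all blood vessels, and their arterial and venous forms carry different surface proteins and transcription factors. In arteries, Notch signalling switches on Hey factors and the ligand ephrin-B2, and SOX factors act with it. In veins, the nuclear receptor encoded by Nr2f2 holds Notch signalling down, and the receptor EphB4 meets ephrin-B2 from neighbouring cells. Thymic venules are known as the place where progenitors enter the organ, and Ackr1 marks such venules in many tissues. Levels of different genes are not compared with each other below, since gene length and capture differ.

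The genes Gja5, Car4 and Ankrd55 were almost never found in the same endothelial cells, as described further on, and the sequences around their starts are shown for that reason. Each runs from 250 bases before to 50 bases after the gene's start in RefSeq, 5′ to 3′ on the gene's strand, on build GRCr8. The windows are chr2:187290977-187291276 (plus strand) for Gja5, chr10:70325108-70325407 (plus strand) for Car4 and chr2:45647536-45647835 (plus strand) for Ankrd55. The RefSeq promoter table held 5 of the 9 genes, these 3 with Efnb2 and Ephb4. Capitals mark the only match to any of 5 motifs searched on both strands.
Gja5: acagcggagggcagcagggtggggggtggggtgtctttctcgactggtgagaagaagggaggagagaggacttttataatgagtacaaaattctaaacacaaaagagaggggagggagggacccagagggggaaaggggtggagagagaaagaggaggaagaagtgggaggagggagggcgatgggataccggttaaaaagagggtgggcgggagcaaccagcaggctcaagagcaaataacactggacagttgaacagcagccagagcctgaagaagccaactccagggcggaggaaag
Car4: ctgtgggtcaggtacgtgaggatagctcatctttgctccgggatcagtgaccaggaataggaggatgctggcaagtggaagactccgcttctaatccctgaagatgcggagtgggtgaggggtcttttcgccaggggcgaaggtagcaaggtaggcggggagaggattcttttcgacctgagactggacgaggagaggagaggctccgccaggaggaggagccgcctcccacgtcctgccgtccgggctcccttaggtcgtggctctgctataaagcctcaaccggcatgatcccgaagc
Ankrd55: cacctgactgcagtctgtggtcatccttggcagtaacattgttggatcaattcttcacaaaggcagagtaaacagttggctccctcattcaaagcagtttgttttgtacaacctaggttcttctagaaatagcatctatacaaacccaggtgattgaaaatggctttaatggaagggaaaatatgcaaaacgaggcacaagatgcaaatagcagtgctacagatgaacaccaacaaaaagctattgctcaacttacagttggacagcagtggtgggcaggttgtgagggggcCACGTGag
The match is an E-box, CACGTG, in Ankrd55 at 43 bases from the start, and 6.42% of the 33469 promoters in the table hold that word. The RBPJ word GTGGGAA, read by the Notch effector, is in 6.29% of all promoters and in 0 of these 5. The SOX word ACAATGG (3.90% of promoters), the nuclear receptor word AGGTCA (16.2%) and the GATA word AGATAA (11.6%) were also in 0 of the 5. These are matches of letters in a short window, and nothing about the factors follows from them.

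Across the endothelial labels, the genes fell into 3 patterns. Efnb2, Hey1, Gja5 and Sox17 were at like levels in aEC and capEC and lower in vEC. Ackr1, Ankrd55 and, less steeply, Nr2f2 were highest in vEC. Car4 was in capEC almost alone, and Ephb4 was at like levels in all 3. Of the 8 genes with a textbook identity, 5 were highest in the matching label (Efnb2, Hey1, Nr2f2, Ackr1 and Car4), a count that ran from 5 to 7 over the other settings tried. For Efnb2 and Hey1 the lead of aEC over capEC was within counting error. For comparison, among 12563 genes with at least 20 UMIs in the endothelial labels, 41.1% were highest in aEC, 31.7% in capEC and 27.1% in vEC. The labels were made from these same cells and all their genes, so a label against the rest is no test.

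**Figure D1:**
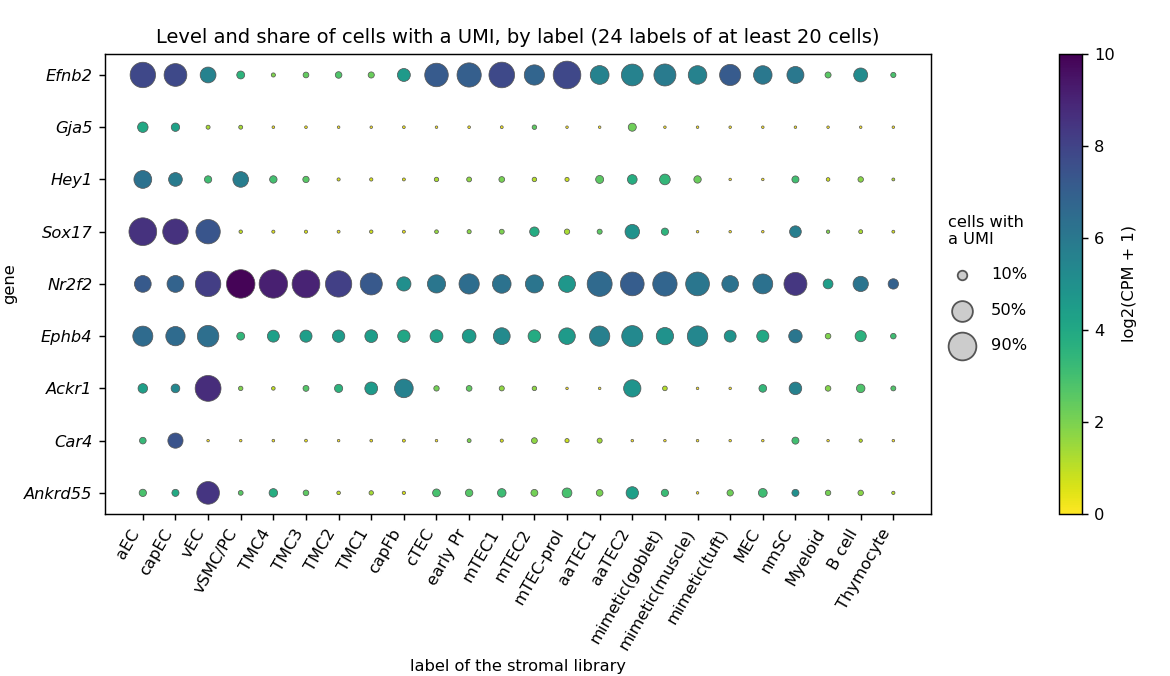
Level of each gene (colour, log2 of CPM plus 1) and share of cells holding a UMI (dot area) in the 24 labels of at least 20 cells, to be read along a row. Sox17, Gja5 and Car4 have their largest and darkest points at the left, while Efnb2 returns in the epithelial labels and Nr2f2 is darkest in vSMC/PC.

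Efnb2 encodes ephrin-B2, the membrane ligand that marks arterial endothelium. Its level was 226 CPM (194 to 261) in aEC, 220 CPM (207 to 235) in capEC and 48.1 CPM (41.2 to 55.8) in vEC. The first pair overlapped, with a ratio of 1.02 (0.875 to 1.20), and vEC lay apart, 4.70-fold (3.82 to 5.78) below aEC. A UMI was found in 75.6% of aEC cells, 60.4% of capEC cells and 28.8% of vEC cells. Efnb2 was not restricted to endothelium in this library, where 20.4% of its UMIs came from the endothelial labels. The label mTEC-prol reached 226 CPM (202 to 253), mTEC1 221 CPM (210 to 233), cTEC 144 CPM and the label early Pr 128 CPM. The top of the order could not be separated, since mTEC-prol, aEC, mTEC1 and capEC each differed from the next by less than the counting interval. At 1.53-fold (1.39 to 1.69), the step from capEC down to cTEC lay outside it. Mesenchymal labels stood far below, from 2.77 CPM in TMC4 to 23.0 CPM in capFb, and the label vSMC/PC, rich in mural markers, at 10.7 CPM.

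Ephb4, the receptor for ephrin-B2 and a textbook vein gene, showed no venous lead. It stood at 91.1 CPM (71.4 to 115) in aEC, 92.8 CPM (84.1 to 102) in capEC and 81.8 CPM (72.8 to 91.7) in vEC. All 3 intervals overlapped, and the ratio of vEC to capEC was 0.881 (0.759 to 1.02), an interval that ends just above equal levels. Cells with a UMI made up 46.7%, 43.1% and 53.8%, in an order that follows the depth of the cells, and 8.89%, 10.6% and 11.2% once each cell was thinned to 1000 UMIs. Outside the endothelium it was found in all 21 labels, at a median of 21.0 CPM with 2.82 CPM in Myeloid and 67.0 CPM in nmSC as the lowest and highest. The level of capEC was 1.39-fold (0.875 to 2.19) that of nmSC, which is within counting error. Of 7 other ephrin-B and Eph-B genes (Epha4 included, which also binds ephrin-B2), 4 had at least 20 UMIs in the endothelium and 0 of 4 passed 3-fold in any endothelial label. Of all 12563 genes, 2.82% passed it, so 0 of 4 is near that share. Epha4 was at 79.9 CPM in aEC, 68.3 CPM in capEC and 30.7 CPM in vEC, the same order as Efnb2. Efnb3 had 0 UMIs in all 3 endothelial labels.

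Hey1, a transcriptional repressor switched on by Notch, was at 76.2 CPM (58.3 to 97.8) in aEC, 58.4 CPM (51.6 to 66.0) in capEC and 7.46 CPM (4.92 to 10.9) in vEC. The lead of aEC over capEC, 1.30-fold (0.986 to 1.72), was within counting error, and the lead of aEC over vEC was 10.2-fold (6.49 to 16.1). Its share of cells fell from 36.7% in aEC to 21.4% in capEC and 5.52% in vEC. Mural cells came next, with 54.6 CPM (47.0 to 63.0) in 28.1% of cells, which did not differ from capEC beyond counting error. That level is not shared by the mesenchyme: TMC4 stood at 6.84 CPM, TMC3 at 5.02 CPM and TMC2, TMC1 and capFb between 0.371 and 0.525 CPM.

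Sox17, an SRY-box factor needed for arterial fate, differed least between the labels of the 4 arterial genes. It was at 383 CPM in both aEC (342 to 429) and capEC (365 to 402), and at 164 CPM (151 to 178) in vEC. A UMI was found in 81 of 90 aEC cells, 75.6% of capEC and 69.2% of vEC cells, so most venous cells held it too. It was the gene most restricted to endothelium by UMIs, with 93.8% of 2779 UMIs in the endothelial labels. Its vEC level was still 3.10-fold (1.86 to 5.17) above the highest other label, nmSC. Among mesenchymal and mural labels it lay between 0.248 and 0.890 CPM.

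Gja5, which encodes the arterial gap junction protein connexin 40, was sparse. It had 12 UMIs in aEC, 83 in capEC and 5 in vEC, that is 14.98 CPM (7.74 to 26.2), 18.7 CPM (14.9 to 23.1) and 1.38 CPM (0.449 to 3.23). Capillary cells were thus no lower than aEC, with a ratio of 1.25 (0.680 to 2.28), while vEC was 13.5-fold (5.47 to 33.3) below capEC. A UMI was found in 12.2% of aEC cells and 7.55% of capEC cells. In vEC the share was 1.16%, at a median depth of 9585.5 UMIs, beside 1.11% in vSMC/PC at 6446 UMIs. It had 0 UMIs in 12 of the 21 other labels. In cTEC that was 0 of 448 cells, which allows a share of up to 0.670%. The highest other label, mTEC2, owed all 4 of its UMIs to 1 cell.

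Of the venous genes, Nr2f2 encodes the nuclear receptor COUP-TFII. It was at 287 CPM (270 to 305) in vEC, 147 CPM (122 to 176) in aEC and 114 CPM (104 to 124) in capEC. The venous lead was 2.52-fold (2.27 to 2.81) over capEC and 1.95-fold (1.61 to 2.36) over aEC. Its share of cells was 75.6% in vEC, 32.2% in aEC and 32.7% in capEC. Endothelial cells held only 5.59% of its UMIs, and vEC came after vSMC/PC, TMC4, TMC3 and nmSC, the last of which it did not differ from beyond counting error. Mural cells led at 954 CPM (921 to 988), 3.33-fold (3.10 to 3.57) above vEC, and carried 10772 CPM of 8 mural markers, beside 272 CPM in TMC2. TMC4 followed at 553 CPM and TMC3 at 527 CPM.

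Ackr1, an atypical receptor that binds chemokines on venules without signalling, was at 421 CPM (400 to 443) in vEC, 40.0 CPM (34.3 to 46.3) in capEC and 19.98 CPM (11.4 to 32.4) in aEC. The vEC level was 10.5-fold (9.01 to 12.3) above capEC, and 78.2% of vEC cells held a UMI, beside 8.18% of capEC and 10.0% of aEC cells. Endothelial labels held 50.9% of its UMIs. Most of the others were in mesenchyme: capFb stood at 49.3 CPM (45.9 to 52.8) with a UMI in 40.3% of its cells, TMC1 at 23.0 CPM, TMC2 at 10.98 CPM, TMC3 at 5.40 CPM and TMC4 at 0.865 CPM. After thinning to 1000 UMIs a UMI remained in 4.05% of capFb cells, 0.160% of TMC4 cells and 31.8% of vEC cells. Over these 5 labels, each step of Ackr1 was larger than counting error and the order was the reverse of that of Nr2f2, which ran from 32.7 CPM in capFb through 150 CPM in TMC1, 274 CPM in TMC2 and 527 CPM in TMC3 to 553 CPM in TMC4. The venous pair thus rose together from capEC to vEC and ran opposite ways across the mesenchyme.

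Ankrd55, an ankyrin repeat protein, was at 348 CPM (329 to 368) in vEC, 14.6 CPM (11.3 to 18.6) in capEC and 6.24 CPM (2.03 to 14.6) in aEC. Its level in vEC was 23.8-fold (18.6 to 30.6) above capEC, with a UMI in 59.9% of vEC cells. Endothelial labels held 73.0% of its UMIs. The highest other label, nmSC, was at 31.7 CPM (14.5 to 60.3) on 9 UMIs, all of them in cells of an endothelial cluster. TMC4 stood at 12.5 CPM (10.6 to 14.8), above the other mesenchymal labels, which lay between 0.495 and 4.54 CPM.

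Car4 encodes carbonic anhydrase 4, an enzyme on the outer face of capillary cells. It was at 171 CPM (159 to 183) in capEC and 8.74 CPM (3.51 to 18.0) in aEC, and had 0 UMIs in vEC among 3617312, which allows up to 0.829 CPM. With vEC set at that floor of 3 UMIs, capEC was at least 206-fold higher. A UMI was found in 26.4% of capEC cells (23.0 to 30.02), so most capEC cells were without one. Endothelial labels held 92.8% of its UMIs, and 10 of the 21 other labels were at 0.

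In the thymocyte library the genes lay between 0.0310 CPM (Gja5) and 1.60 CPM (Ephb4), with a UMI in 0.0117% to 0.948% of 8546 cells at a median depth of 3994 UMIs. Each endothelial level given above was higher than its thymocyte-library level, except that of Car4 in vEC. Within the stromal library, however, cells labelled Thymocyte held Nr2f2 at 121 CPM (105 to 138), and capEC at 114 CPM was not above them, with a ratio of Thymocyte to capEC of 1.06 (0.902 to 1.25). Ankrd55 was chosen for its level in vEC and is left out of the next counts. The other 8 genes were also chosen with earlier results of these data known, so the counts are descriptions and no test. Over all 24 labels, 6 of the other 8 genes were highest in an endothelial label, the exceptions being Efnb2 and Nr2f2, beside 12.3% of the 12563 genes. With Ankrd55 counted in, the number was 7 of 9 and ran from 6 to 8 over the other settings. Ackr1 and Car4 were at least 3-fold above both other endothelial labels, 2 of 8 beside 2.82% of the genes (vEC alone 0.955%, capEC 0.239%, aEC 1.62%). Above every label outside the endothelium the fold was at least 3 for Ackr1, Car4 and Sox17, 3 of 8 beside 1.58% of the genes. For Gja5 it was at least 1.76 (0.557 to 5.58) in capEC over nmSC, which had 0 UMIs and was set at the floor of 3. None of the 4 arterial genes passed 3-fold in aEC over capEC and vEC.

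The cells that the authors labelled aEC, capEC and vEC came almost all from 2 of their initial clusters, Endo-1 and Endo-2, which stood apart in RNA of other cell types. Of aEC cells 61 were in Endo-1 and 29 in Endo-2, of capEC 534 and 101, and of vEC 284 and 60, with 1 capEC cell outside both. Summed fibroblast markers (6 of 6 found) lay at 486 to 674 CPM over the Endo-1 labels and at 17683 to 20461 CPM over those of Endo-2, beside 39342 CPM in TMC2. Lymphatic markers (6 of 6) lay at 2.31 to 17.0 CPM and 499 to 1721 CPM, and 12 pan-endothelial markers at 7070 to 8847 CPM and 3459 to 3646 CPM. Mural markers (8 of 8) were highest in aEC at 482 CPM, beside 204 CPM in capEC and 133 CPM in vEC, and Myh11, a smooth muscle myosin, was at 99.9 CPM there against 5.17 and 1.38 CPM. In Endo-1 alone the mural sum of aEC was 595 CPM, beside 139 CPM in capEC, so leaving out Endo-2 did not remove it. The part of this RNA in the levels of the vessel genes was not tested.

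Levels differed between Endo-1 and Endo-2 within the same label, in both directions. Sox17 was at 537 CPM (470 to 611) in aEC of Endo-1 and 203 CPM (160 to 255) in aEC of Endo-2, and at 445 and 152 CPM in capEC. Hey1 in capEC was at 67.2 and 25.3 CPM, Gja5 at 22.7 and 3.30 CPM, Car4 at 197 and 69.2 CPM, and Ackr1 in vEC at 463 and 236 CPM. Nr2f2 went the other way in capEC, from 84.5 CPM (75.2 to 94.7) to 224 CPM (194 to 257), as did Ankrd55, from 9.93 CPM (6.92 to 13.8) to 33.0 CPM (22.2 to 47.0). Nr2f2 in aEC (113 and 187 CPM), Ackr1 in capEC (36.9 and 52.7 CPM) and Car4 in aEC (4.63 and 13.6 CPM) were also higher in Endo-2, with intervals that overlapped. With Endo-2 left out, Sox17 was highest in aEC, with capEC at 0.825 of it (0.719 to 0.947), and Nr2f2 in vEC was 2.64-fold (1.98 to 3.52) above aEC. Within Endo-2, Nr2f2 showed no venous lead beyond counting error. It was at 187 CPM (146 to 237) in aEC, 224 CPM (194 to 257) in capEC and 232 CPM (196 to 271) in vEC.

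**Figure D2:**
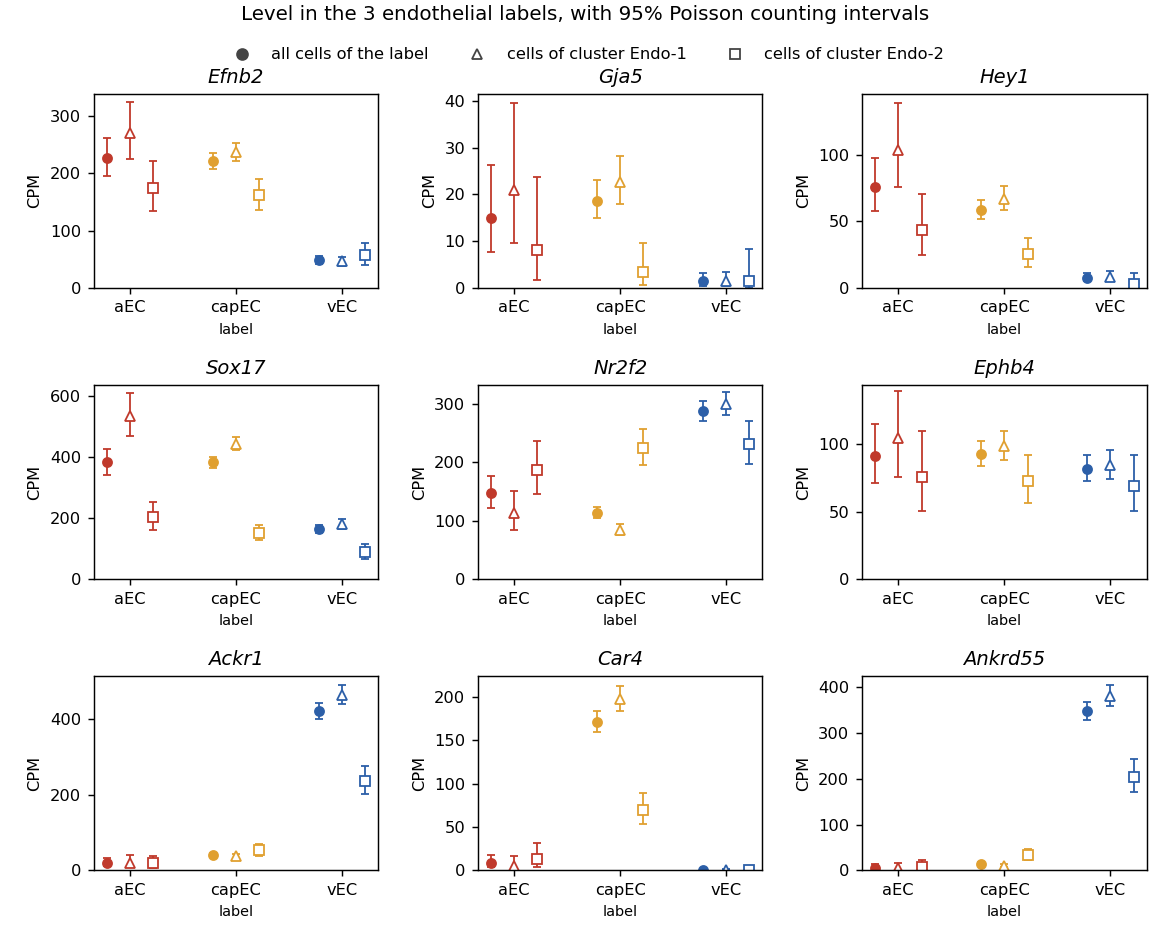
Level in CPM of each gene in aEC, capEC and vEC, for all cells of the label (filled circles) and for its cells in Endo-1 (triangles) and Endo-2 (squares), with 95% Poisson intervals for counting error. Sox17 is lower in Endo-2 in all 3 labels, as are Car4 in capEC and Ackr1 in vEC, Nr2f2 and Ankrd55 in capEC are higher there, and Ephb4 overlaps throughout.

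A set of 46 endothelial-labelled cells held at least 3 UMIs of the lymphatic markers, a limit set after the values were seen, and 41 of them were in Endo-2. Their labels were capEC for 32, vEC for 11 and aEC for 3. Nr2f2, which is also known in lymphatic endothelium, was at 405 CPM (348 to 469) in them with a UMI in 89.1% of cells, beside 169 CPM in the rest of Endo-2 and 177 CPM in Endo-1. Efnb2 was at 242 CPM (199 to 293), beside 96.3 CPM (81.4 to 113) in the rest of Endo-2 and 157 CPM in Endo-1. Ephb4 was at 129 CPM (97.7 to 167), beside 58.1 CPM (46.8 to 71.5) and 92.5 CPM in the same order. Its interval overlapped that of Endo-1 only. Gja5 had 0 UMIs, which leaves up to 8.35 CPM by the exact interval, Car4 was at 6.79 CPM, and Ackr1 was at 65.7 CPM with a UMI in 13.04% of the cells. Fibroblast markers were at 11499 CPM in these cells, beside 20602 CPM in the rest of Endo-2 and 635 CPM in Endo-1, and their part in the result was not tested.

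RNA of the vessel genes in other labels lay partly in cells that group with endothelium or that held pan-endothelial UMIs. Of the Endo-1 and Endo-2 cells, 54 carried other stromal labels and 2 were labelled fetal, with 18 nmSC and 16 early Pr cells the most frequent. These 54 cells, with 1043 others clustered elsewhere that held at least 5 pan-endothelial UMIs, were a part of the 12154 cells outside the endothelial labels. They held 72.9% of the outside UMIs of Car4, 70.9% of those of Sox17 and 66.7% of those of Gja5. For Efnb2 the share was 4.54%, for Ackr1 7.92%, for Ephb4 11.8% and for Nr2f2 20.4%. The 54 Endo cells alone held 34 of the 59 outside UMIs of Car4, 60 of 172 of Sox17 and 4 of 18 of Gja5. For Nr2f2 they held 143 of 28049. The part of all outside UMIs that lay in the same cells was not counted, so no background stands beside these shares. In early Pr, 30 of 37 Car4 UMIs were in its 16 Endo cells, and in nmSC 14 of 15 Sox17 UMIs were in its 18 Endo cells.

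Of 1070 endothelial cells, 63 held Gja5 (48 of them capEC, 11 aEC and 4 vEC), 172 held Car4 (168 capEC, 4 aEC, 0 vEC), 330 held Ackr1 (269 vEC) and 244 held Ankrd55 (206 vEC). In all, 2 cells held both Gja5 and Car4, 2 held Gja5 and Ankrd55, 2 held Gja5 and Ackr1, 3 held Car4 and Ackr1, and 0 held Car4 and Ankrd55. Ackr1 and Ankrd55 were together in 187 cells. Of the 63 cells with Gja5, 42 held 1 UMI of it. The cells with Car4 were 97.7% capEC, and those with Ankrd55 were 84.4% vEC. The number of cells shared by other pairs of genes of like detection was not counted, so no background stands beside these counts. Depth differed between these sets, with a median of 6626 UMIs for cells with Gja5, 4478 for Car4, 9926.5 for Ackr1 and 11207.5 for Ankrd55, so each pair was also counted at 3000 UMIs per cell in the 963 cells that deep.

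Cells with Gja5 carried the other arterial genes. Hey1 was in 58.7% of them (45.6 to 71.0) and in 15% of cells without Gja5, Efnb2 in 85.7% and 49.4%, and Sox17 in 96.8% and 73.4%. Nr2f2 was in 20.6% of them and 48.1% of the others, while Ephb4 was in 46.0% and 46.9%. At 3000 UMIs, 38 cells held Gja5, of which 50.0% held Hey1, beside 8.76% of the others, and 0 held Nr2f2, Ackr1 or Ankrd55, which leaves up to 9.25% by the exact interval. Within Endo-1 alone, Hey1 was in 61.4% of 57 cells with Gja5 and 16.3% of those without. Within capEC alone it was in 60.4% of 48 cells and 18.2%, so the arterial genes went with Gja5 inside the label capEC too.

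Cells with Ankrd55 carried the venous genes Ackr1 and Nr2f2, and 84.4% of them were vEC. Ackr1 was in 76.6% of them (70.8 to 81.8), beside 78.2% of all vEC cells, and in 17.3% of cells without Ankrd55. Nr2f2 was in 82.4% of them, beside 75.6% of all vEC cells, and in 35.8% of cells without. Both shares thus lay near those of the label itself. The arterial side was lower, with Efnb2 in 30.3% and 57.7% and Hey1 in 6.56% and 20.8%. At 3000 UMIs, 153 cells held Ankrd55, of which 52.9% held Ackr1, beside 16.8% of the others. Sox17 was in 72.5% of Ankrd55 cells and 75.4% of the rest at full depth, but in 35.9% and 57.0% at equal depth of 3000 UMIs. Within capEC, the 33 cells with Ankrd55 held Ackr1 in 27.3% of cases, beside 7.13% of the others. Cells with Car4 were 97.7% capEC, a label in which 32.7% of all cells held Nr2f2 and 8.18% Ackr1. Cells with Car4 less often held Nr2f2 and Ackr1, with Nr2f2 in 20.3% of them against 51.4% of the others and Ackr1 in 1.74% against 36.4%. At 3000 UMIs these shares were 8.93% against 32.5% for Nr2f2 and 2.68% against 25.1% for Ackr1. For the arterial genes the shares lay nearer each other, with Efnb2 in 53.5% against 51.1%, Sox17 in 71.5% against 75.4% and Hey1 in 15.7% against 17.9%, and at 3000 UMIs 39.3% against 31.6%, 59.8% against 52.9% and 6.25% against 10.9% in the same order.

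**Figure D3:**
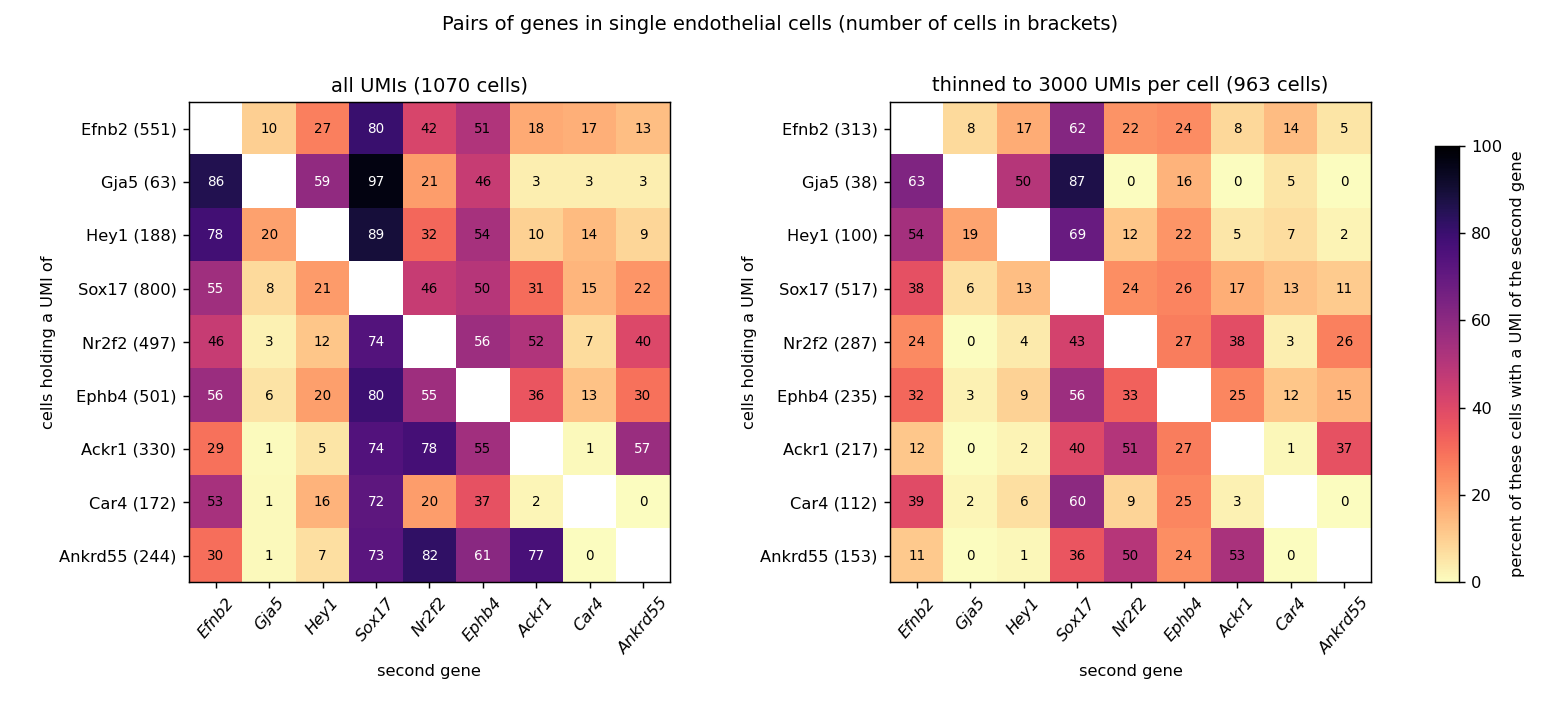
Percent of the cells holding a UMI of the row gene that also held one of the column gene, over all 1070 endothelial cells and after thinning each to 3000 UMIs (963 cells). Gja5, Car4 and Ankrd55 hold each other in at most 3.17% of cells at full depth, and 76.6% of cells with Ankrd55 held Ackr1.

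On the embedding that the authors deposited, cells with these genes lay in different stretches of 1 band. Median coordinates were 5.91 and 9.29 for cells with Gja5, 4.81 and 8.11 for Car4, and 3.97 and 12.3 for Ankrd55. Ackr1 lay beside Ankrd55 at 4.14 and 12.02, and Nr2f2 reached further, at 4.78 and 11.7. Cells labelled aEC lay among the capEC cells. Positions on such an embedding have no unit and come from all genes, the vessel genes included.

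**Figure D4:**
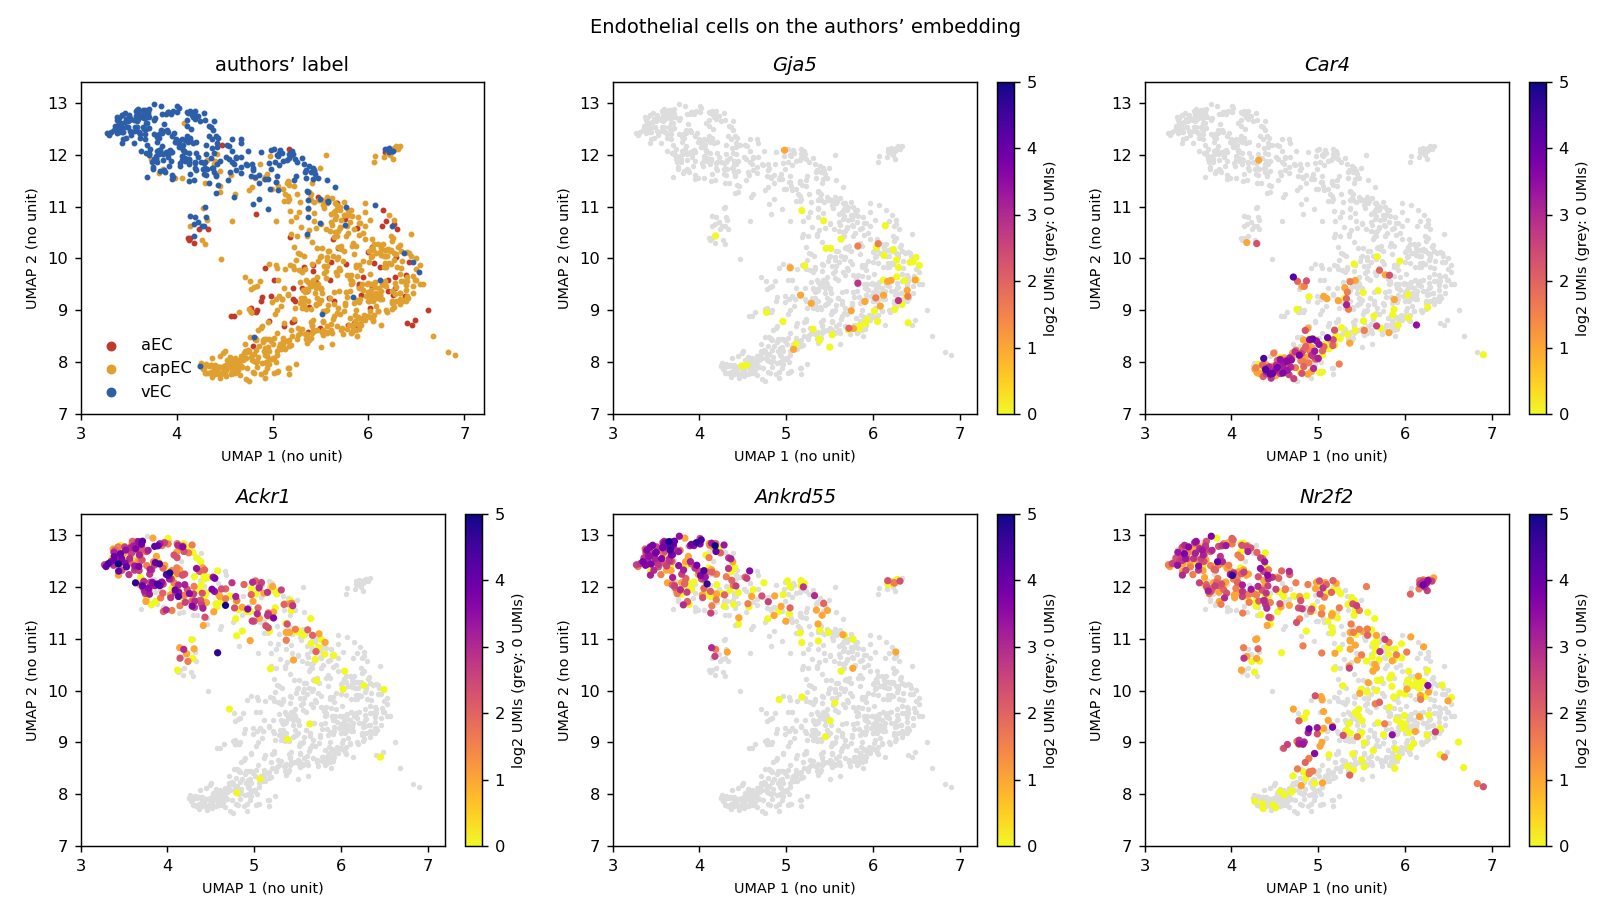
Positions on the authors' embedding of 1067 endothelial cells (3 more lie outside the axes), coloured by label in the first panel and by log2 UMIs of 1 gene in the others, with grey for cells without a UMI. Car4 fills the lower tip, Gja5 the right edge, and Ackr1 and Ankrd55 the upper left end, where the vEC cells are.

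Since Gja5 and Car4 hardly met within capEC, its cells were split by them, a comparison made after the counts of pairs were seen. The split gave 46 cells with Gja5 and no Car4, 166 with Car4 and no Gja5, 2 with both and 422 with neither, at median depths of 6483, 4429.5, 6121 and 6390 UMIs. Hey1 was at 167 CPM (126 to 218) in the Gja5 set and 48.4 CPM (35.9 to 63.8) in the Car4 set, a ratio of 3.45 (2.35 to 5.07). Sox17 was 2.00-fold (1.69 to 2.37) and Efnb2 1.81-fold (1.44 to 2.26) higher in the Gja5 set, while Ephb4 at 1.27 (0.844 to 1.92) and Nr2f2 at 1.49 (0.951 to 2.34) did not differ beyond counting error. In cells with neither gene, Hey1 was at 50.4 CPM and Sox17 at 367 CPM, close to the Car4 set, and Nr2f2 was at 136 CPM, beside 57.1 CPM. Endo-1 held 79.6% of the cells with neither gene and 91.6% of the Car4 set, and the part of the clusters in the Nr2f2 difference was not tested.

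Other vessel genes parted along the same split. Of 21 arterial genes with enough UMIs, 5 were at least 3-fold higher in the Gja5 set and 1 in the Car4 set, with a median log2 ratio of 0.86, beside -0.04 over the 8072 genes tested, of which 1.97% were 3-fold higher in the Gja5 set and 2.6% in the Car4 set. Bmx, a kinase of arterial endothelium, was at 69.9 and 2.90 CPM, Gja4, which encodes connexin 37, at 277 and 33.9 CPM, and Mecom, a transcription factor, at 1669 and 367 CPM. Over all cells of each label, however, Bmx did not mark aEC, at 25.0 CPM there, 17.1 CPM in capEC and 26.8 CPM in vEC. The 1 past 3-fold on the Car4 side was the Notch target Hes1, at 15.2 and 108 CPM. Nrp1, with a ratio of the Gja5 set to the Car4 set of 0.508 (0.440 to 0.586), and Cxcr4, at 0.494 (0.261 to 0.932), were also lower in the Gja5 set beyond counting error. Of 19 capillary genes, 0 were 3-fold higher in the Gja5 set and 6 in the Car4 set, with a median log2 ratio of -1.30. They included Esm1, a secreted proteoglycan of endothelial tip cells, at 15.2 and 320 CPM, Apln, the ligand of the apelin receptor, at 3.04 and 394 CPM, and Rgcc at 185 and 1060 CPM. Of 16 venous genes, 1 lay past 3-fold on either side, Vwf with the Gja5 set at 94.2 and 24.2 CPM and the semaphorin receptor Nrp2 with the Car4 set at 119 and 386 CPM. Their median log2 ratio was 0.45, so the venous list leaned toward the Gja5 set as well, less than the arterial list.

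**Figure D5:**
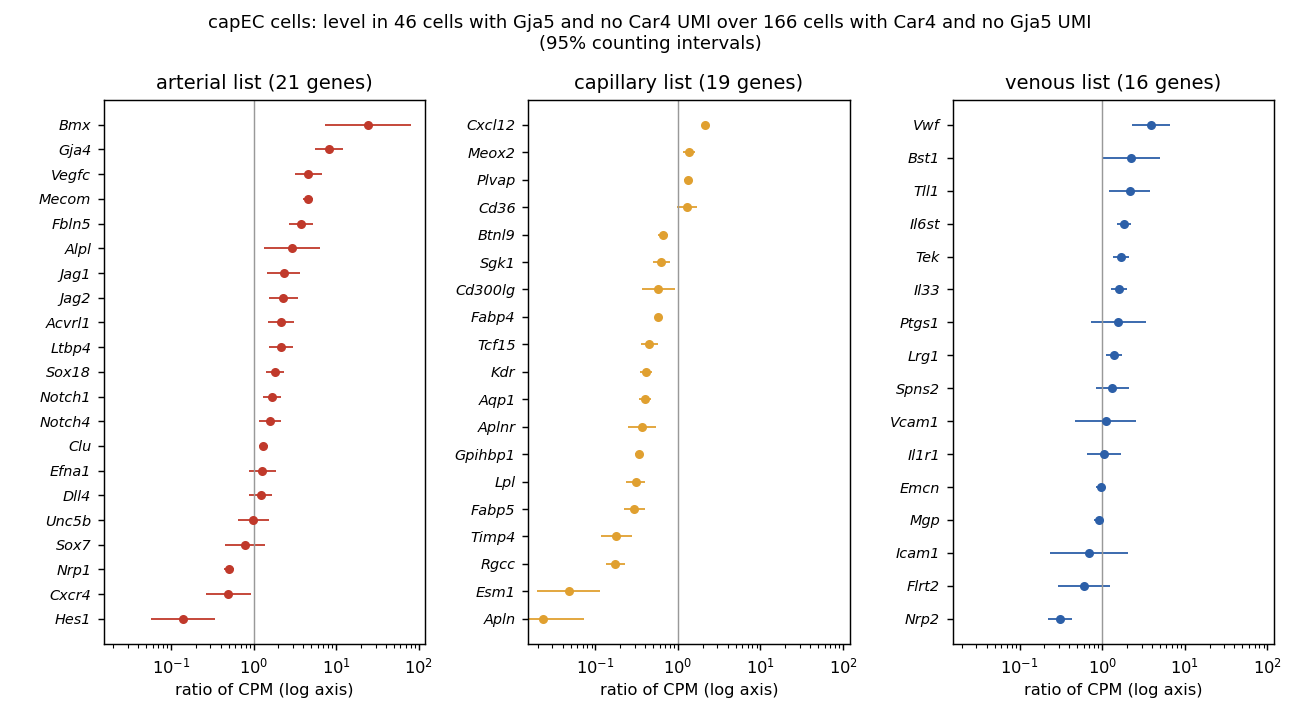
Ratio of the level in the 46 capEC cells with Gja5 to that in the 166 with Car4, on a log axis, for the genes of the arterial, capillary and venous lists that had enough UMIs, with 95% counting intervals and a line at equal levels; Apln, with 1 UMI in the Gja5 set, is drawn at the bound that 3 UMIs give. Most arterial genes lie right of the line and most capillary genes left of it.

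The wider lists, which like the 9 genes were drawn up with earlier results of these data known, were counted in the same way. Of all 12563 genes, 41.1% were highest in aEC, 31.7% in capEC and 27.1% in vEC. Of 24 arterial genes with at least 20 UMIs, 12 were highest in aEC, 11 in capEC and 1 in vEC. None passed 3-fold in any of these labels, beside 2.82% of all genes. Their median log2 ratio was 0.19 for aEC over capEC and 1.08 for aEC over vEC, beside 0.05 and 0.13 for all genes tested. Jag1, a Notch ligand, came nearest at 129, 45.4 and 35.7 CPM in aEC, capEC and vEC, and Gja4 followed at 207, 93.7 and 7.74 CPM. Cxcr4, a chemokine receptor of arterial and tip cells, was led by capEC at 40.2 CPM, beside 14.98 CPM in aEC and 0.829 CPM in vEC. The capillary list had 15 of 20 genes highest in capEC, 3 of them past 3-fold (Apln, Timp4 and Rgcc) beside 0.239% of all genes, and Esm1 had 0 UMIs in vEC. Of the rest, 2 were highest in aEC (Cd36 and Cxcl12) and 3 in vEC (Aqp1, Plvap and Meox2). Plvap was at 2686 CPM in vEC and 1765 CPM in capEC, and Aqp1 at 1718 and 1098 CPM. In the venous list 15 of 21 were highest in vEC and 8 passed 3-fold, beside 0.955% of all genes, among them Sele, an adhesion molecule for leukocytes, at 451 CPM in vEC, 32.1 CPM in capEC and 14.98 CPM in aEC, and Madcam1, which had 48 UMIs in vEC and 0 in the others. The venous genes Nrp2 and Emcn were highest in capEC, and 4 others (Flrt2, Mgp, Tek and Cpe) in aEC. Mgp was at 1672 CPM in aEC, 1130 CPM in capEC and 511 CPM in vEC.

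Of 13 tested genes of the path from Notch ligand to Hey factor, Hey1 left aside, 7 were highest in aEC, 5 in capEC and 1 in vEC. These are 53.8% and 38.5% for aEC and capEC, beside 41.1% and 31.7% of all genes. The receptors Notch1 (167, 192 and 122 CPM in aEC, capEC and vEC) and Notch4 (94.9, 98.9 and 29.3 CPM) and the ligand Dll4 (94.9, 107 and 53.9 CPM) differed little between aEC and capEC. Only Notch3, a receptor of mural cells, passed 3-fold, at 38.7 CPM in aEC, 11.7 CPM in capEC and 7.19 CPM in vEC. Among all genes, 2.82% passed it in any endothelial label. Notch3 is itself 1 of the 8 mural markers summed above, and the part of mural RNA in its level was not tested.

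The number of these genes in a cell followed the labels as well. On average an aEC cell held 2.14 of the 4 arterial genes and 0.889 of the 3 venous genes, a capEC cell 1.65 and 0.840, and a vEC cell 1.05 and 2.08. At least 3 arterial genes were found in 38.9% of aEC, 19.3% of capEC and 1.74% of vEC cells, although vEC cells were the deepest. All 3 venous genes were found in 36.05% of vEC, 4.44% of aEC and 3.46% of capEC cells. Cells with at least 1 UMI of Ackr1, Nr2f2 and Ankrd55 together numbered 151 in vEC, 7 in capEC and 1 in aEC.

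Genes with the most similar order of levels were sought over 18 labels of at least 50 cells, by Pearson's r of log2 CPM plus 1 among 13999 genes with at least 100 UMIs. The labels share 1 library, the r values describe these labels only, and nothing on function follows. Sox17 had the closest match in Podxl (0.981), then Myrip and Tmem255b, all 3 highest in aEC or capEC. Gja5 was followed most closely by Slc26a10 (0.931), Bean1 and Cstdc2, and Hey1 by Sox13 (0.901), Inka2 and Adgrf5. Nr2f2 ran with Mylk (0.936), Septin4 and Ednra, each highest in vSMC/PC. Efnb2 ran with Usp43 (0.936) and Fhip1a, and Ephb4 with Efna1 (0.946), Afdn and Stox2. Ackr1 matched Gsg1l (0.948), Il20rb and Ramp2, Ankrd55 matched Piga (0.875), Chmp6 and Cdh20, and Car4 matched C1qtnf9 (0.854), Sez6l2 and Esm1.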

How the data were processed

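Single-cell counts of the stromal and thymocyte libraries were whole UMI counts per gene and barcode, deposited by the authors and made with Cell Ranger 8.0.0 on build mRatBN7.2, with Seurat 5.3.0 also named, per the submitters' processing notes. The percent of mitochondrial UMIs per cell and the embedding score of each cell on 2 axes were also deposited by the authors, and the aligner settings and annotation are not given in the sources used here. Of 34034 feature names, 29433 matched a symbol of the RefSeq table. The section's tables were not used.

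Cells were grouped by the authors' projected label, or the initial cluster where none was given, within the 13226 annotated barcodes. Annotated endothelial cells had 693 to 40102 UMIs. UMIs were summed per label of at least 20 cells and divided by the label's total. With 1 sample per group no test was possible. The 9 genes and all lists were chosen with earlier results of these data known. A ratio against fewer than 3 UMIs used 3 UMIs, the floor for a count of 0, and genes needed 20 UMIs over the endothelial labels to be compared. Named beside the 9 genes were those of each list that led most between the endothelial labels, up to 2 a label, and the 3 genes with the highest correlation, of which 1 is not reported here; others, such as those of the capEC split, Sele and Madcam1, were chosen after their values were seen. Doublets were neither called nor removed. Thinning drew UMIs without replacement with seed 7; 1000 UMIs left out 17 and 3000 UMIs 107 endothelial cells.

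Alternatives were cells of at least 1000 UMIs, cells below the 99th percentile, cells without markers of another class, the mean of the cells' CPM, thinning to 1000 UMIs, totals without mitochondrial, ribosomal and haemoglobin genes, other label columns, labels of at least 50 cells, 2-fold, and 100 UMIs. Chosen after seeing the data were leaving out Endo-2, thinning to 3000 UMIs and leaving out cells with 10 or more UMIs of another class. The 3-fold rule was tested on simulated data of 12541 genes. It recovered 100 of 100 genes changed 8-fold and 95 of 100 changed 4-fold, and called 11 of 12341 unchanged genes. These rates describe the simulated counts only. In the real cells the UMIs of a gene can lie in few cells. Hba-a1 had 607 UMIs in capEC, where 0.943% of cells held a UMI of a red cell marker. The rate of false calls in the real cells was not tested. The tools were pandas 2.3.3, SciPy 1.17.1 and NumPy 2.4.6 for the tables and matplotlib 3.10.9 for the figures, all under Python 3.11.15.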

Additional observations from a re-analysis of the deposited data

Results flagged for a closer look

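The stromal library also held 2934 barcodes that the authors left without annotation, with 8663291 UMIs, and these enter no comparison above. In them 8 of the 9 genes lay above the upper counting limit of the thymocyte library, where the genes were at 0.0310 to 1.60 CPM. The share of all genes above that limit was not counted, so the count says nothing particular about these genes. Nr2f2 was at 105 CPM (98.1 to 112), Efnb2 at 94.8 CPM (88.4 to 101), Ephb4 at 19.7 CPM and Ankrd55 at 14.1 CPM. Sox17 was at 7.85 CPM, Ackr1 at 6.69 CPM, Hey1 at 4.85 CPM and Car4 at 2.77 CPM. Gja5, at 0.346 CPM on 3 UMIs, was not clear of the thymocyte library. Over all annotated stromal cells the same genes were at 226 CPM for Nr2f2, 49.7 CPM for Efnb2, 24.8 CPM for Ephb4, 13.8 CPM for Ankrd55, 21.1 CPM for Sox17, 25.6 CPM for Ackr1, 6.03 CPM for Hey1 and 6.27 CPM for Car4.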

How the results depend on the processing

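Over 213 recomputed values, the counts of the vessel genes stayed within 1.5 times in 21 of 21 settings, though which genes made them up changed: Sox17 entered the count of matching labels in 7 settings and Efnb2 left it in 2. The ratios of single genes moved by less than their counting interval in 127 of 159 cases, moved by more in 31 and gave no direction in 1: for Gja5 in capEC over mTEC2 at 1000 UMIs per cell, 16 UMIs remained in capEC and 0 in mTEC2, and 0.514 is a lower bound set by the floor of 3 UMIs. The counts of genes at least 3-fold higher depended on depth and limits. For aEC the count of 204 became 60 at 1000 UMIs per cell, 107 at 3000, 87 without cells holding 10 or more UMIs of another class, 640 at 2-fold and 65 with at least 100 UMIs. For capEC the count of 30 became 46 with the mean of the cells' CPM, 13 at 1000 UMIs per cell, 109 at 2-fold and 19 with at least 100 UMIs. For vEC the count of 120 became 35 at 1000 UMIs per cell, 71 at 3000 and 279 at 2-fold. Thinned cells have fewer genes with 20 UMIs; the cause of the other moves was not tested. The filter at 2 UMIs of another class kept 16 aEC cells, under the 20 needed, and gave no value, and initial clusters alone cannot part aEC, capEC and vEC. No paired analysis was possible because the comparisons lie within 1 stromal library. Depth limits Gja5 most, with 12 UMIs in aEC.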

Other observations

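Cells of the stromal library labelled Thymocyte held Nr2f2 at 121 CPM (105 to 138), with a UMI in 11.9% of 411 cells at a median depth of 2648 UMIs, beside 0.341 CPM in the thymocyte library. The same cells held 13557 CPM of the 6 fibroblast markers and 454 CPM of the 8 mural markers, whose part in the Nr2f2 level was not tested. Their Efnb2 was at 6.41 CPM and their Ephb4 at 7.58 CPM, also above the 1.33 and 1.60 CPM of that library.

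Haemoglobin was found in capEC: Hba-a1 was at 136 CPM there on 607 UMIs, at 0.553 CPM in vEC and at 0 UMIs in aEC. A UMI of the 4 red cell markers was found in 0.943% of capEC cells, 1.74% of vEC cells and 2.22% of aEC cells, so the haemoglobin of capEC lay in few cells.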
